A study of Homo sapiens with 40 samples.

Results

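The heat shock proteins and their cochaperones were followed in 4 established lines grown from mantle cell lymphoma and exposed to OTX015 or to DMSO. The lines were GRANTA519, JEKO1, MAVER1 and REC1. The members are the genes on the array whose symbol starts with HSPA, HSPB, HSPD, HSPE, HSPH, HSP90 or DNAJ, together with BAG3, CHORDC1 and HSF1. They make up 79 of 20046 named genes, and 68 of the 13746 genes tested. The names are used as a gene family label, so HSPBP1 (an exchange factor of HSP70) and HSPBAP1 (a binding partner of HSPB1) enter through their prefix, and DNAJB3 and HSPA7 are transcribed pseudogenes. AHSA1 and HSF2 also belong by name, but no probe used here is annotated to them, and they were not analysed here.

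OTX015 inhibits the BET proteins, readers of acetylated histones, and DMSO is the vehicle. Each line was sampled after 2, 4, 8, 12 and 24 h of OTX015 and of DMSO, with 1 single-colour Illumina array for each line, treatment and time, 40 arrays in all. The 4 lines are therefore the replicates of each of the 10 groups, and each line is a single established culture line. Neither the dose of OTX015 nor whether the times of a line were separate cultures is given in the sources used here, so the p-values rest on the spread between lines. For the effect at each time and for changes between times, this spread is shared over all times. Tests for a difference between lines use the times of a line instead.

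HSP70 proteins bind unfolded stretches of client proteins and release them under control of ATP. J proteins, the DNAJ family, bring clients to HSP70 and start its ATP cleavage, while HSPH1 and BAG3 among others exchange the nucleotide and reset it. HSP90 takes on partly folded clients such as kinases, HSPD1 and HSPE1 fold proteins inside mitochondria, and HSPA5 does the work of HSP70 in the endoplasmic reticulum. HSF1, the heat shock factor, turns on the inducible members through heat shock elements, short inverted repeats of GAA in their promoters, and these genes are known for their response to heat and to unfolded proteins.

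The arrays detected between 35.3% and 46.9% of 47231 probes, and the number of arrays, not read depth, limits the precision. All 40 arrays were most similar to an array of the same line. The B cell markers CD79A, CD79B and the mantle cell lymphoma marker SOX11 were detected on 20 of 20 OTX015 and 20 of 20 DMSO arrays, and the PAX5 probe on no array. Of the other mantle cell lymphoma markers, CCND1 was detected on 10 OTX015 and 15 DMSO arrays and CD5 on 1 and 5. The plasma cell markers XBP1, SDC1 and JCHAIN were detected on 20, 19 and 13 OTX015 arrays and on 20, 20 and 15 DMSO arrays. Of markers of other cells, the T cell gene CD3D was detected on 5 OTX015 and 5 DMSO arrays and CD8A on 5 and 4, the myeloid genes CD14 on 17 and 20 and FCGR3A on 17 and 18, and CD3E and NKG7 on none. Their part in the results was not tested. The values below are log2 signals after background correction and quantile normalisation, and a difference is OTX015 minus DMSO of the same line and time unless it is said to be between times. Differences are given as the mean of the 4 lines ± SD. Tests are limma's, with p adjusted over all 13746 genes by the Benjamini-Hochberg method and a threshold of 0.05. In a whole culture, fewer cells carrying a transcript and less transcript per cell cannot be told apart.

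Of the 79 members, 42 were detected on all 40 arrays and 6 on none. The 11 untested members were DNAJB7, DNAJC25-GNG10, DNAJC5B, HSPA12B, HSPA1A, HSPA1L, HSPB2, HSPB6, HSPB7, HSPB8 and HSPB9. Of the 7 small heat shock proteins only HSPB1 and HSPB3 were tested. HSPA1A and HSPA1B encode nearly the same protein from neighbouring copies on chromosome 6, and the HSPA1A probe was detected on 3 arrays only, so the inducible HSP70 is described here through the HSPA1B probe, which may also bind HSPA1A transcript. HSPA6 and HSPA7 are likewise close copies.

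The promoter windows of some members named in the results are shown because they carry the motifs known for the heat shock and the endoplasmic reticulum stress responses. They are RefSeq windows of the build GRCh38.p14, 250 bases before to 50 bases after the annotated start, written 5′ to 3′ on the gene's strand. Capitals mark every match, on either strand, to the 2-unit heat shock element (GAANNTTC or TTCNNGAA) or to the endoplasmic reticulum stress element (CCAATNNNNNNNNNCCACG). DNAJB1 has 3 annotated start sites, and the one with most matches is shown.
HSPA1B, chr6:31827488-31827787, plus strand: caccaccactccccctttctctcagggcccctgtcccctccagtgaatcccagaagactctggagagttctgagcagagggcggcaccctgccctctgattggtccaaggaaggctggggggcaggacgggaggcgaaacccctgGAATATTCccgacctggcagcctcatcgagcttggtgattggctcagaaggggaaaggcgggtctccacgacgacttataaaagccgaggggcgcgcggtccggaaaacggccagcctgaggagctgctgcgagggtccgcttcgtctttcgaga
DNAJB1, chr19:14518348-14518647, minus strand: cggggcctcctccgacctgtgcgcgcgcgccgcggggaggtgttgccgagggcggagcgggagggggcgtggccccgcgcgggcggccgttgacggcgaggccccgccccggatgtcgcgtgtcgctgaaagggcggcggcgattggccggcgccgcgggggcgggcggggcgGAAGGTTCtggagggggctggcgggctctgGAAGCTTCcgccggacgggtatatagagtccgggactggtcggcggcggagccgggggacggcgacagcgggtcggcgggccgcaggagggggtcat
CHORDC1, chr11:90223000-90223299, minus strand: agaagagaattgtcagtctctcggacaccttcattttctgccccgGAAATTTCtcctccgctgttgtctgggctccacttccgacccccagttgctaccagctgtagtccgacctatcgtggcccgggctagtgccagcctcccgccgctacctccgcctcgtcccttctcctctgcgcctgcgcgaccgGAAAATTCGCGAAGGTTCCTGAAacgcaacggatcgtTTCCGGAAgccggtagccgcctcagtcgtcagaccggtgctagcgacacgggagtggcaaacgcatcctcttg
HSPA8, chr11:123062087-123062386, minus strand: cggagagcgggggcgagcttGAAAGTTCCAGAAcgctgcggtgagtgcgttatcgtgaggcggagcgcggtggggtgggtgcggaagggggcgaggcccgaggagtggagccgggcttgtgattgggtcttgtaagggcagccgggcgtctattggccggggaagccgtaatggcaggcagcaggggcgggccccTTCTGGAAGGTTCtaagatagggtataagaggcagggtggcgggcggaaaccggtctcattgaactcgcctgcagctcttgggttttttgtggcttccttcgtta
HSPA5, chr9:125241294-125241593, minus strand: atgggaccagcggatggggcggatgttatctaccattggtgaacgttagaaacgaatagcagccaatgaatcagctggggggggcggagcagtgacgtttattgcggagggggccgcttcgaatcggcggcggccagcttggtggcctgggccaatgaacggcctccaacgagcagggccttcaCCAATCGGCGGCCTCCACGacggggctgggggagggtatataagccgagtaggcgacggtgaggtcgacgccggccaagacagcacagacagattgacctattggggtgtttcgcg

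RefSeq windows were found for 69 of the 79 members, 90 windows in all. A 3-unit heat shock element (GAANNTTCNNGAA or TTCNNGAANNTTC, whose units overlap those of the 2-unit match) stood in 8.89% of the members' windows and in 0.49% of all 35114 windows. The 2-unit match, which is far less specific, stood in 26.7% of members' windows and 13.5% of all. The CHORDC1 window held a run of 5 units in alternating orientation that gives 3 overlapping 3-unit matches, at -60, -55 and -50 from the start. HSPA8 had 3-unit matches at -230 and -55, HSPA1B a single 2-unit match at -105, and the DNAJB1 window 2-unit matches at -77 and -47. The windows of BAG3 and HSPH1 held neither form. No window of HSPA1B, DNAJB1 or BAG3 held a 3-unit match. Besides CHORDC1 and HSPA8, the members with a 3-unit match were HSPA6, HSPD1, HSP90AB1, DNAJB6, DNAJA1 and HSP90AA1. The stress element at -66 of HSPA5 stood in 0.0769% of all windows, and the HSP90B1 window held 2 such matches.

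At 2 h, the inducible chaperones HSPA1B, DNAJB1 and BAG3 were higher with OTX015. These were 3 of the 4 members that rose at 2 h, with HSPA5 the other, and DNAJC14 and DNAJC30 fell. The same contrast called 4.96% of all genes tested as higher and 4.84% as lower, and 9.80% in either direction. The median difference of the 68 members was 0.04 log2 at 2 h, beside -0.01 over all genes.

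HSPA1B, the stress-inducible cytosolic HSP70, read 8.45 in GRANTA519, 8.95 in JEKO1, 9.08 in MAVER1 and 6.33 in REC1 after 2 h of OTX015, against 7.04, 7.05, 7.28 and 5.17 in the same lines in DMSO. Each OTX015 array was above the DMSO array of its line, and the groups overlapped through REC1, the lowest line in both. The difference was 1.57 ± 0.35 log2 (SD, n = 4 lines), a 2.97-fold rise (limma, adjusted p = 0.00087). At 4 h the difference was 0.65 ± 0.92 (limma, adjusted p = 0.103), with 3 lines higher and REC1 lower by 0.70, and from 8 h on its mean lay between -0.23 and 0.07.

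DNAJB1, the J protein that works with HSPA1B and is induced with it, read 9.0 in GRANTA519, 8.04 in JEKO1, 8.60 in MAVER1 and 8.75 in REC1 after 2 h of OTX015, against 7.79, 7.11, 7.49 and 7.65 in DMSO. The groups did not overlap. The difference was 1.08 ± 0.12 log2 (limma, adjusted p = 6.44e-06, higher in 4 of 4 lines), and at 4 h it was 0.58 ± 0.12 (limma, adjusted p = 0.00112). DNAJB1 had the smallest spread between lines of the 3 genes at 2 h, and its 24 h difference was -0.12 ± 0.12, not past the threshold.

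BAG3, which couples HSP70 to selective autophagy, read 6.12 in GRANTA519, 6.73 in JEKO1, 8.57 in MAVER1 and 7.96 in REC1 after 2 h of OTX015, against 4.46, 6.23, 7.06 and 7.30 in DMSO. All 4 lines were higher, JEKO1 by 0.51. GRANTA519 detected BAG3 on 2 of its 5 DMSO arrays and its 2 h value was the lowest of them, so its difference of 1.66 is set against a signal near background and the size there is uncertain. The mean difference was 1.09 ± 0.58 log2 at 2 h (limma, adjusted p = 0.00135) and 0.95 ± 0.40 at 4 h (limma, adjusted p = 0.00166). The 2 h call was lost with that time fitted alone. The effect of OTX015 on BAG3 and on DNAJB1 over all times was no longer past the threshold without the 2 h arrays, an alternative chosen after the values were seen, or without GRANTA519. For BAG3 it was also lost without MAVER1, without REC1 and with no detection filter.

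**Figure D1:**
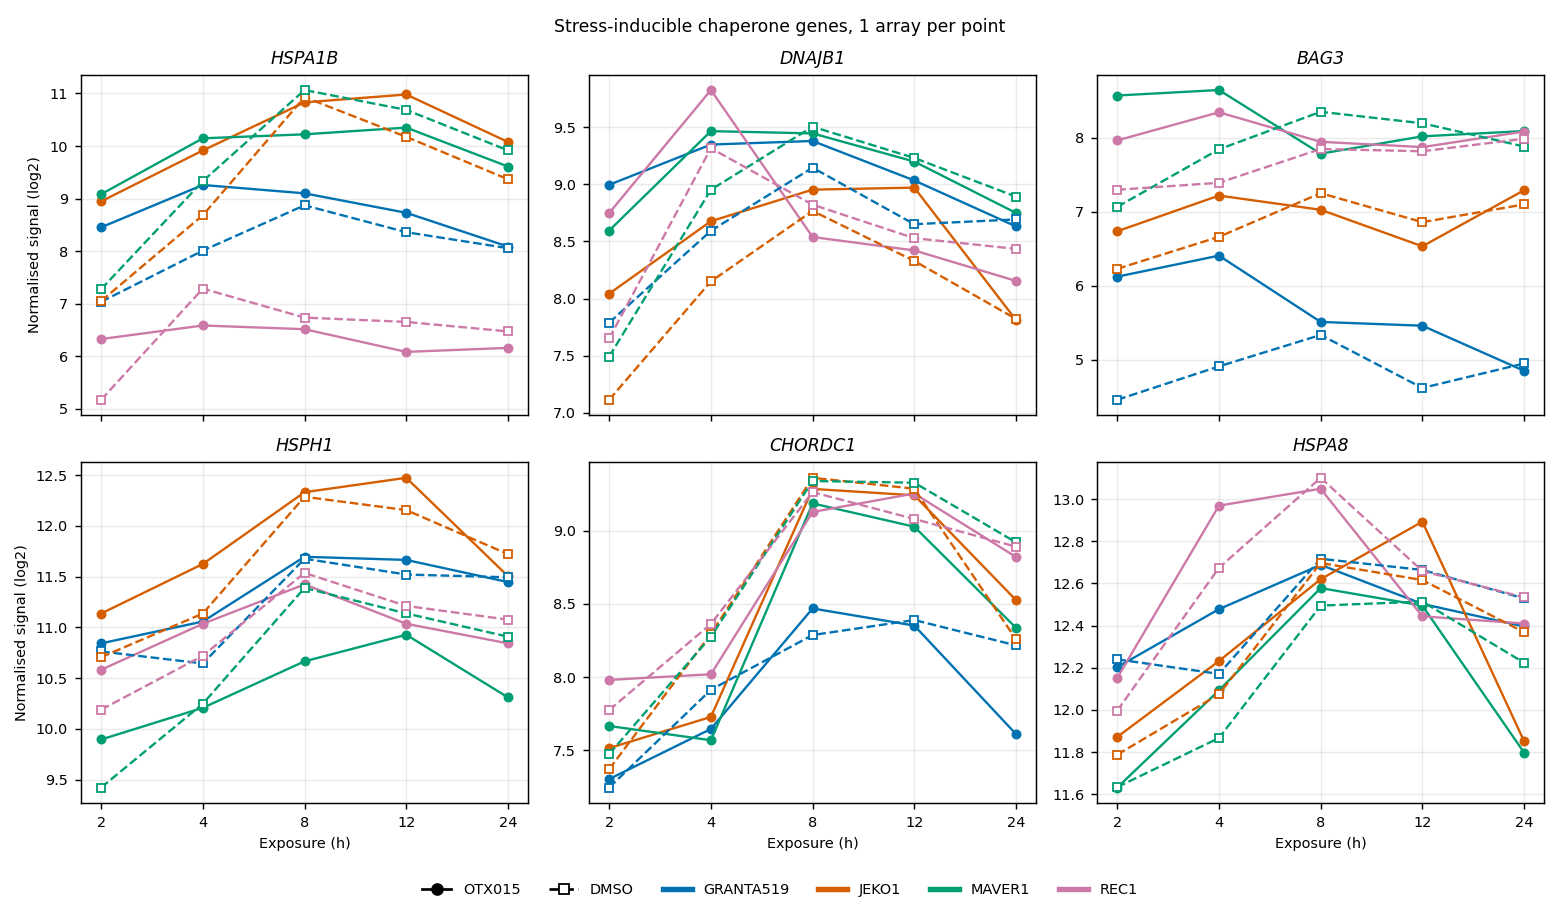
Log2 signal of 6 inducible chaperone genes at each exposure time, 1 point per array, with solid lines and filled circles for OTX015, dashed lines and open squares for DMSO, and 1 colour per cell line; each panel has its own signal axis. At 2 h the OTX015 points of HSPA1B, DNAJB1 and BAG3 lie above the DMSO points of the same line, and HSPA1B in DMSO reaches 11.07 in MAVER1 at 8 h, against 7.28 at 2 h.

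The DMSO arrays themselves moved in the same genes. Of the 68 members, 10 were higher at 24 h than at 2 h of DMSO and 2 were lower, whereas 4.36% of all genes tested were higher and 3.09% lower (7.45% in either direction). Over the 68 members the median change in DMSO was 0.13 log2, beside 0.02 over all genes. The 10 that rose were HSPA1B, CHORDC1, HSPH1, DNAJB1, BAG3, HSPA8, DNAJA1, DNAJA3, HSPD1 and HSP90AA1. The OTX015 effect at 2 h and the change in DMSO share the DMSO 2 h arrays, so the values of each are given side by side and do not support each other.

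HSPA1B in DMSO read 9.37 in JEKO1, 9.92 in MAVER1, 8.06 in GRANTA519 and 6.47 in REC1 at 24 h, against 7.05, 7.28, 7.04 and 5.17 at 2 h. Between these times the mean change was 0.28 ± 0.68 log2 in OTX015 (limma, adjusted p = 0.489). In DMSO it was 1.82 ± 0.78 (limma, adjusted p = 0.00454), a 3.53-fold rise seen in 4 of 4 lines. The difference between the 2 changes, which is also the change of the OTX015 effect, was -1.54 ± 0.40 (limma, adjusted p = 0.00162).

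For DNAJB1, the change over the same interval was -0.26 ± 0.31 in OTX015 (limma, adjusted p = 0.424) and 0.95 ± 0.31 in DMSO (limma, adjusted p = 0.00319). For BAG3 it was -0.27 ± 0.79 in OTX015 (limma, adjusted p = 0.401) and 0.72 ± 0.17 in DMSO (limma, adjusted p = 0.00425). At 24 h the treatments differed by -0.12 log2 for DNAJB1 and 0.10 log2 for BAG3, neither past the threshold.

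CHORDC1, a zinc-binding cochaperone of HSP90, differed by 0.15 ± 0.07 at 2 h (limma, adjusted p = 0.525) and rose over time in both treatments. At 24 h it was higher than at 2 h by 0.71 ± 0.30 in OTX015 (limma, adjusted p = 0.00204) and by 1.11 ± 0.25 in DMSO (limma, adjusted p = 0.000608). Its signal at 4 h was 7.64 in GRANTA519, 7.73 in JEKO1, 7.57 in MAVER1 and 8.02 in REC1 with OTX015, against 7.91, 8.29, 8.28 and 8.36 in DMSO. All 4 lines were lower with OTX015 at 4 h, by 0.47 ± 0.20 (limma, adjusted p = 0.00969), a call lost with the mean of all probes and without MAVER1.

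HSPH1, an HSP110 exchange factor of HSP70, rose in both treatments. The change to 24 h was 0.41 ± 0.14 in OTX015 (limma, adjusted p = 0.0371) and 1.03 ± 0.33 in DMSO (limma, adjusted p = 0.000528). Its OTX015 effect fell between these times by 0.62 ± 0.39 (limma, adjusted p = 0.0151), with a difference of 0.34 ± 0.18 at 2 h that did not pass the threshold. The rise in OTX015 was lost without GRANTA519, JEKO1 or MAVER1, and the change of the effect without JEKO1, MAVER1 or REC1.

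The other 5 members that rose in DMSO had smaller changes. In OTX015 HSPA8 changed by 0.15, DNAJA1 by 0.20, HSP90AA1 by 0.15, DNAJA3 by 0.19 and HSPD1 by -0.12 log2 between 24 h and 2 h, none past the threshold. HSPA8, the constitutive HSP70, rose in DMSO by 0.50 ± 0.14, DNAJA1, a type A J protein, by 0.48 ± 0.08 and HSP90AA1, the inducible cytosolic HSP90, by 0.35 ± 0.22, each in 4 of 4 lines (limma, adjusted p = 0.0127, 0.00601 and 0.0324). Mitochondrial members were among them, DNAJA3 with 0.46 ± 0.06 and the chaperonin HSPD1 with 0.36 ± 0.17 (limma, adjusted p = 0.00955 and 0.0398). The HSPD1 and HSP90AA1 calls were each lost without GRANTA519, MAVER1 or REC1, the HSPD1 call also with the mean of all probes, that of HSPA8 without JEKO1 or MAVER1 and that of DNAJA3 without GRANTA519 or MAVER1. The constitutive HSP90AB1 changed by 0.03 and HSPA14 by -0.15 in DMSO, neither past the threshold.

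Each of the 10 members had a larger mean difference from 2 h at 8 h than at 24 h of DMSO, a comparison of means that was not tested. At 8 h against 2 h of DMSO, 18 members were higher and 2 were lower, when 8.18% of all genes were higher and 4.54% lower; this contrast was chosen after the values were seen. HSPA1B was then higher by 2.77 ± 1.24, CHORDC1 by 1.60 ± 0.43, DNAJB1 by 1.55 ± 0.37 and HSPH1 by 1.45 ± 0.44 log2, each in 4 of 4 lines (limma, adjusted p = 0.000231, 2.42e-05, 7.13e-05 and 2.42e-05). In OTX015 at 8 h against 2 h, 14 members were higher and 3 lower, beside 12.7% and 8.42% of all genes. At 4 h, 4 members were higher and 1 lower than at 2 h in OTX015 (4.32% and 2.39% of genes), and 6 and 0 in DMSO (5.33% and 2.05%). At 12 h the counts were 12 and 9 in OTX015 (12.7% and 10.3%), and 18 and 3 in DMSO (7.49% and 4.51%).

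In OTX015 DNAJB12 changed by -0.02 and DNAJB9 by -0.05 log2 between 24 h and 2 h, neither past the threshold. In DMSO at 24 h, DNAJB12, an endoplasmic reticulum membrane J protein, was lower by 0.55 ± 0.28 and DNAJB9, a J partner of HSPA5, by 0.45 ± 0.24 (differences of -0.55 and -0.45; limma, adjusted p = 0.0207 and 0.0334). The DNAJB12 call was lost without GRANTA519, MAVER1 or REC1 and the DNAJB9 call without any 1 of the lines. The mean of all probes also lost the DNAJB12 call. DMSO 2 h arrays detected 37.9% to 39.9% of probes, DMSO 8 h arrays 43.5% to 46.9% and DMSO 24 h arrays 39.6% to 44.2%, and the part of this in the changes above was not tested. OTX015 2 h arrays detected 36.3% to 45.6%. At 12 h the range was 35.3% to 41.8% in OTX015 and 41.8% to 43.8% in DMSO. The part of these shares in the OTX015 effects was not tested either. Without MAVER1 3 members changed between 24 h and 2 h of DMSO, and 7 without GRANTA519, against 12 with all lines, and HSPA1B, DNAJB1 and DNAJA1 were among those lost without MAVER1. The count for 8 h against 2 h of DMSO was 10 without JEKO1, 8 without MAVER1 and 13 without REC1, against 20.

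**Figure D2:**
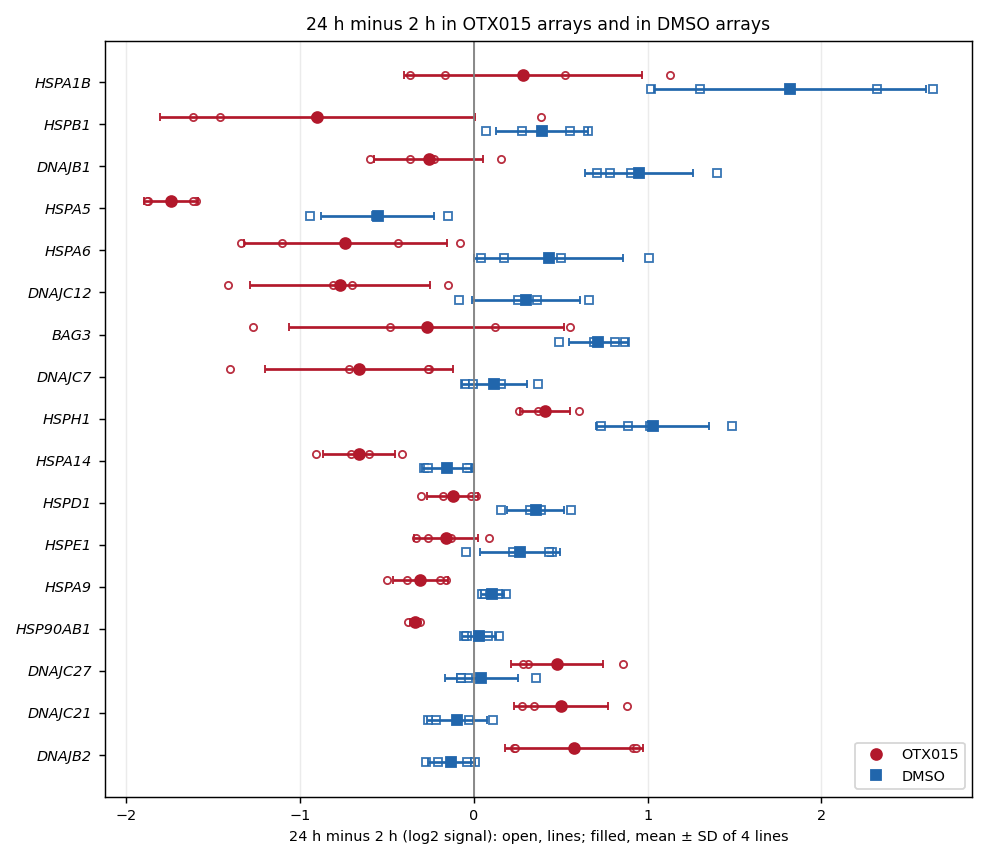
Difference in log2 signal between 24 h and 2 h, separately in OTX015 (red circles) and in DMSO (blue squares), for the 17 members whose OTX015 effect changed between these times; open symbols are lines, filled symbols the mean with SD. HSPA1B changed by 0.28 in OTX015 and 1.82 in DMSO, and HSPA5 by -1.74 in OTX015 and -0.55 in DMSO.

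The effect of OTX015 itself differed between 24 h and 2 h in 17 members, 14 toward lower and 3 toward higher values, with 5.67% and 5.78% of all genes doing so (11.5% together). The median shift was -0.24 log2 over the 68 members and 0.01 over all genes. The count was 8 without GRANTA519, 5 without MAVER1 and 7 without REC1. Within OTX015, 7 members were higher and 11 lower at 24 h than at 2 h, beside 13.6% and 10.2% of all genes (23.8% together), and HSPA5 had the largest of these changes. That count was 8 without GRANTA519 and 9 without MAVER1, against 18.

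HSPA5 (BiP), the HSP70 of the endoplasmic reticulum, read 8.42 in GRANTA519, 8.49 in JEKO1, 7.91 in MAVER1 and 9.06 in REC1 at 2 h of OTX015, against 7.94, 8.21, 7.09 and 8.78 in DMSO. It was higher by 0.47 ± 0.26 (limma, adjusted p = 0.0196, 4 of 4 lines), a call that was lost without GRANTA519, MAVER1 or REC1 and with 2 h fitted alone. At 24 h it read 6.82, 6.61, 6.30 and 7.19 in those lines with OTX015, against 7.38, 7.65, 6.94 and 7.84 in DMSO. At that time all 4 lines were lower, by 0.72 ± 0.22 (a difference of -0.72; limma, adjusted p = 0.000219), after -0.76 ± 0.25 at 8 h and -0.81 ± 0.16 at 12 h.

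Within OTX015, HSPA5 at 24 h was lower than at 2 h by 1.74 ± 0.16 log2 (-1.74; limma, adjusted p = 2.31e-07), 3.35-fold, in 4 of 4 lines. DMSO gave -0.55 ± 0.32 (limma, adjusted p = 0.0647), while the F test over the 5 times in DMSO passed for HSPA5 (limma F test, adjusted p = 0.012). DNAJB11, its luminal J partner, was lower in OTX015 by 0.39 ± 0.19 (-0.39; limma, adjusted p = 0.0121) and changed by -0.06 in DMSO. HSP90B1, the HSP90 of the endoplasmic reticulum, changed by -0.52 ± 0.46 in OTX015 and 0.24 ± 0.14 in DMSO, neither past the threshold, and DNAJC3, an inhibitor of the stress kinase PERK, was higher with OTX015 at 8 h by 0.66 ± 0.32 (limma, adjusted p = 0.0329), a call lost without GRANTA519, JEKO1 or MAVER1.

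Outside the reticulum, HSPB1, the small heat shock protein HSP27, differed by 0.34 ± 0.12 at 2 h (limma, adjusted p = 0.316). At 24 h it read 10.81 in GRANTA519, 10.49 in JEKO1, 9.75 in MAVER1 and 7.28 in REC1 with OTX015, against 11.57, 10.50, 10.99 and 9.08 in DMSO. The JEKO1 arrays differed by -0.01 and the other lines by -1.80 in REC1, -1.25 in MAVER1 and -0.76 in GRANTA519. The mean was -0.95 ± 0.76 (limma, adjusted p = 0.000983), and -0.93 ± 0.31 at 12 h (limma, adjusted p = 0.0015), when 4 of 4 lines were lower. These p-values use a spread shared over the times, and the 24 h call was lost with that time fitted alone.

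HSPA6, an HSP70 that is silent without stress in most cells, was detected on 0 of 4 OTX015 arrays and 3 of 4 DMSO arrays at 24 h. Its signal was at least 1.62-fold lower with OTX015 at that time (limma, adjusted p = 0.000881). At 8 h the difference was -0.71 ± 0.34 and at 12 h -0.77 ± 0.49 (limma, adjusted p = 0.00993 and 0.00522), with REC1 the smallest of the 4 lines at both. The 8 h call was lost without GRANTA519 or MAVER1 and the 12 h call without JEKO1.

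At 24 h, 3 of the 6 cytosolic HSP70 members tested were lower with OTX015, and 2 of the 6 were above 0. Of the HSP70 members of the endoplasmic reticulum and mitochondria 2 of 3 were lower, as were 2 of 2 chaperonin and 1 of 3 HSP90 members. The same contrast called 11.4% of all genes as lower. HSPA9, the mitochondrial HSP70, fell by 0.52 ± 0.11, HSPD1 by 0.42 ± 0.09 and HSPE1, the cochaperonin of HSPD1, by 0.38 ± 0.27 (differences of -0.52, -0.42 and -0.38; limma, adjusted p = 0.000144, 0.00083 and 0.00487). A second HSPE1 probe gave -0.85, and 2 other HSPD1 probes detected on all 40 arrays gave -0.35 and -0.75. The HSPE1 call was lost without MAVER1 or REC1 and with 24 h fitted alone. HSP90AB1, the constitutive cytosolic HSP90, read 10.95 in GRANTA519, 11.73 in JEKO1, 10.92 in MAVER1 and 11.21 in REC1 with OTX015, against 11.30, 12.01, 11.42 and 11.74 in DMSO, and its difference was -0.41 ± 0.12 (limma, adjusted p = 0.00185). HSPA14, a ribosome-associated HSP70, was at -0.43 ± 0.24 and HSPA8 at -0.30 ± 0.20 (limma, adjusted p = 0.00207 and 0.021), the HSPA8 call being lost without JEKO1 or MAVER1. Fitting 24 h alone lost the calls of both HSPA14 and HSPA8. HSP90AA1 with -0.10, HSP90B1 with -0.28, DNAJA3 with -0.18 and HSPH1 with -0.27 did not pass at 24 h. Neither did HSPA1B with 0.03, HSPA7 with -0.26, HSPA13 with -0.09 or HSPA2. Between 24 h and 2 h DMSO itself changed by 0.11 for HSPA9, 0.36 for HSPD1, 0.27 for HSPE1, 0.03 for HSP90AB1 and 0.50 log2 for HSPA8, of which HSPD1 and HSPA8 passed the threshold.

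**Figure D3:**
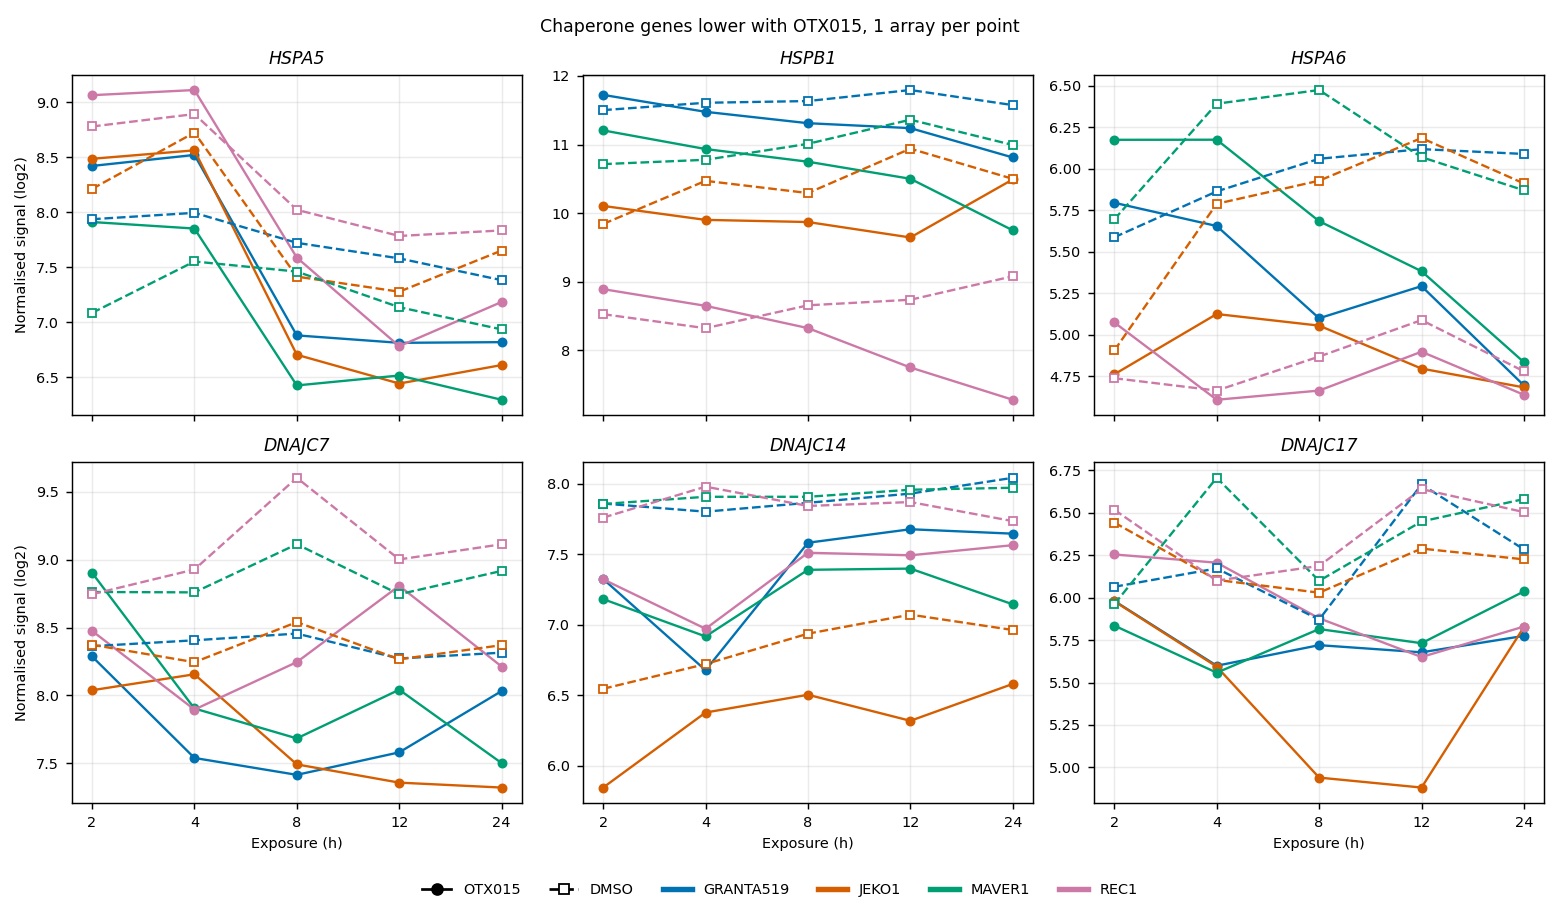
Log2 signal at each exposure time of 6 members that were lower with OTX015, 1 point per array, drawn as solid filled circles for OTX015 and dashed open squares for DMSO, 1 colour per line, with a separate axis per panel. HSPA5 in OTX015 lies above DMSO at 2 h and below it from 8 h on in all 4 lines, and the DNAJC14 arrays in OTX015 lie below those of DMSO at every time within each line.

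Over all times together, 20 members differed, 6 higher and 14 lower, while 14.5% of all genes were higher and 14.4% lower (28.9% in either direction). At least 1 time gave a call for 31 members, beside 43.2% of all genes. DNAJC14 was the only member called at all 5 times (3.03% of all genes), and the median of the 68 members over all times was -0.04, beside 0.01 over all genes. At 4 h, 12 members passed (20% of genes), 5 higher and 7 lower, beside 9.92% and 10.1% of genes. At 8 h, 15 passed (21.7%), 5 higher and 10 lower, beside 11% and 10.7%. At 12 h, 17 passed (22.5%), 5 higher and 12 lower, beside 10.6% and 11.9%. At 24 h, 17 passed (24.6%). Of those, 3 members were higher and 14 lower, while 13.2% of all genes were higher and 11.4% lower, and the median of the members was -0.11 beside 0.01. The count over all times was 11 without GRANTA519 and 13 without MAVER1, against 20.

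The type C J proteins, which share the J domain and little else, made up 11 of these 20, 9 lower and 2 higher, of 27 tested. DNAJC7, a tetratricopeptide cochaperone that binds HSP70 and HSP90, read 7.41 in GRANTA519, 7.49 in JEKO1, 7.68 in MAVER1 and 8.25 in REC1 at 8 h of OTX015, against 8.46, 8.54, 9.11 and 9.60 in DMSO. No OTX015 array reached the lowest DMSO array. The 8 h difference was -1.22 ± 0.20 and the difference over all times -0.72 ± 0.11 (limma, adjusted p = 2.32e-05 and 0.0011), with -0.13 at 2 h, which did not pass. Its change in DMSO was 0.12 log2.

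DNAJC14, an endoplasmic reticulum membrane J protein, read 7.32 in GRANTA519, 5.85 in JEKO1, 7.18 in MAVER1 and 7.32 in REC1 at 2 h of OTX015, against 7.86, 6.55, 7.86 and 7.76 in DMSO. JEKO1 was the low line in both treatments, and every OTX015 array was below its DMSO partner. The differences were -0.59 ± 0.12 at 2 h, -0.87 ± 0.35 at 4 h, -0.39 ± 0.10 at 8 h, -0.48 ± 0.22 at 12 h and -0.44 ± 0.28 at 24 h (limma, adjusted p between 4.96e-05 and 0.0258). The 24 h call was lost without MAVER1 and with that time fitted alone.

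DNAJC17, a nuclear J protein tied to splicing, read 5.68 in GRANTA519, 4.88 in JEKO1, 5.73 in MAVER1 and 5.65 in REC1 at 12 h of OTX015, against 6.67, 6.29, 6.45 and 6.64 in DMSO, with no overlap. The difference there was -1.03 ± 0.29 and over all times -0.56 ± 0.16 (limma, adjusted p = 0.000122 and 0.0032). DNAJC15, a J protein of the mitochondrial inner membrane, was at -0.48 ± 0.07 and DNAJC30, a mitochondrial J protein, at -0.46 ± 0.14 over all times (limma, adjusted p = 0.0025 and 0.00554). DNAJC30 was already lower at 2 h, by 0.61 ± 0.29 (a difference of -0.61, limma, adjusted p = 0.00741), a call lost without JEKO1 and with 2 h fitted alone. The calls of DNAJC7, DNAJC14, DNAJC15, DNAJC17 and DNAJC30 over all times held under every alternative run for them.

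DNAJC12, a cochaperone of the aromatic amino acid hydroxylases, was lower mainly late. At 24 h it read 4.62 in GRANTA519, 5.49 in JEKO1, 6.86 in MAVER1 and 6.86 in REC1 with OTX015, against 5.34, 7.06, 7.67 and 8.42 in DMSO. GRANTA519 was near background in both treatments, and all 4 lines were lower, by -1.16 ± 0.46 (limma, adjusted p = 4.25e-05), and the gene's other 3 probes gave -0.86, -1.08 and -1.14. DNAJC2, which binds ribosomes, was detected on 0 of 4 OTX015 and 4 of 4 DMSO arrays at 4 h, at least 1.15-fold lower with OTX015 (limma, adjusted p = 0.000251). At 2 h it was detected on 0 of 4 DMSO arrays. Its mean in DMSO was 4.65 at 2 h and 5.19 at 4 h (limma F test over times in DMSO, adjusted p = 0.0281). In all, 1 OTX015 and 12 DMSO arrays detected it, so it met the detection filter through DMSO.

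Fewer J proteins were higher. DNAJB6, which keeps polyglutamine proteins from aggregating, was higher by 0.82 ± 0.27 at 4 h, 0.42 ± 0.23 at 8 h and 0.35 ± 0.28 at 12 h, each in 4 of 4 lines (limma, adjusted p = 0.000104, 0.0209 and 0.0477). Over all times its difference was 0.41, and 0.13 for its second probe. DNAJC9, a histone chaperone with a J domain, was higher by 0.34 ± 0.03 over all times (limma, adjusted p = 0.00648, 4 of 4 lines). DNAJC21, a factor of ribosome biogenesis, read 6.43 in GRANTA519, 5.97 in JEKO1, 5.78 in MAVER1 and 6.21 in REC1 at 24 h of OTX015, against 5.57, 5.34, 5.29 and 5.47 in DMSO, without overlap (0.68 ± 0.16; limma, adjusted p = 0.000585). A second DNAJC21 probe, detected on 29 arrays, gave 0.23.

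DNAJB2, which passes clients to the proteasome, read 9.34 in GRANTA519, 9.21 in JEKO1, 9.25 in MAVER1 and 8.81 in REC1 at 24 h of OTX015, against 8.19, 9.19, 8.01 and 8.39 in DMSO. JEKO1 was already high in DMSO and differed by 0.01, and the mean was 0.71 ± 0.59 (limma, adjusted p = 0.00362). The second DNAJB2 probe gave 0.20 at 24 h, and the call was lost without GRANTA519 or MAVER1 and with 24 h fitted alone. HSPA2, an HSP70 best known from the testis, passed the threshold at 4 h (limma, adjusted p = 0.00126), but in DMSO it was detected in MAVER1 alone, so its mean difference has no firm size. In MAVER1 it read 7.20 with OTX015 and 5.76 in DMSO at 4 h. Over all times HSPA2 was at least 1.11-fold higher in GRANTA519 and at least 1.03-fold higher in REC1, and JEKO1 detected it in neither treatment.

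**Figure D4:**
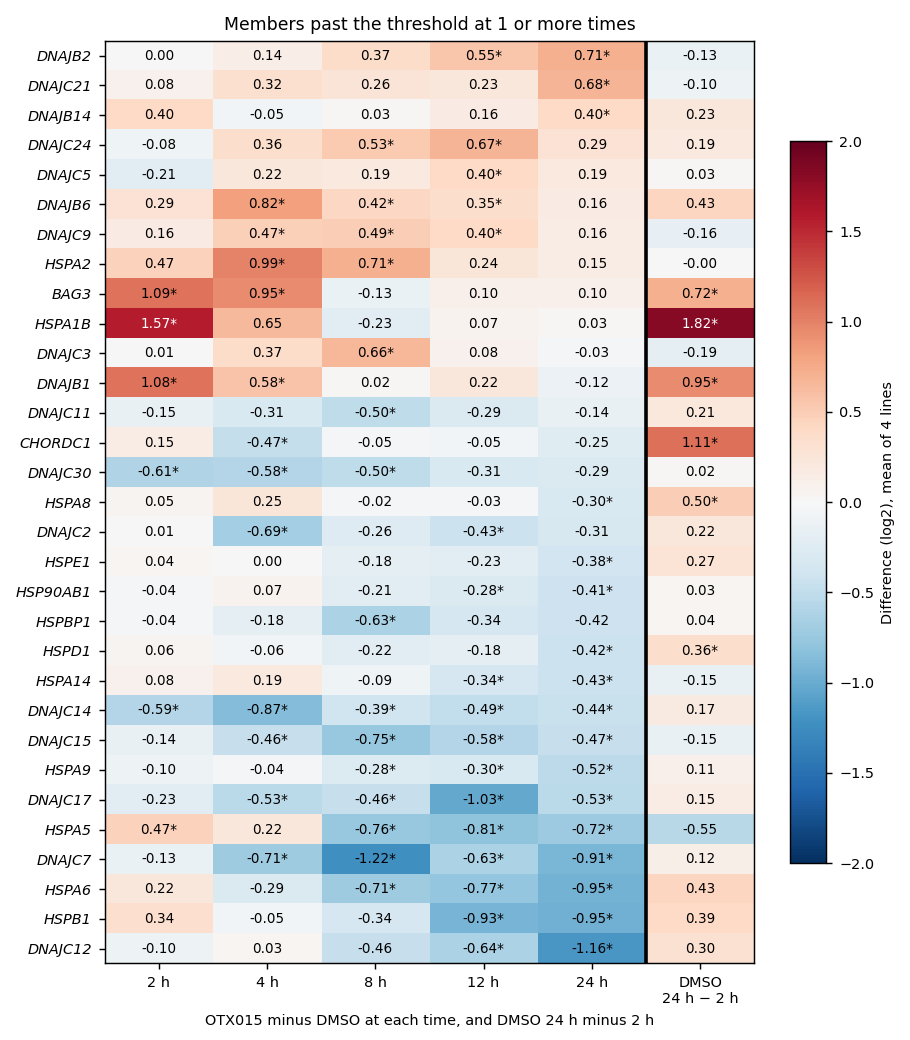
Mean difference over 4 lines (log2) for the 31 members past the threshold at 1 or more times, as OTX015 minus DMSO at each time and, right of the black line, as DMSO 24 h minus DMSO 2 h; an asterisk marks an adjusted p under 0.05, red is higher and blue lower. HSPA1B, DNAJB1 and BAG3 are red at 2 h and red in the DMSO column, while DNAJC14 is blue at all 5 times with 0.17 in the DMSO column.

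HSF1 itself did not pass the threshold in any of these contrasts. Its differences were -0.02 ± 0.51 at 2 h and -0.07 ± 0.31 at 24 h. Its change between those times was -0.30 ± 0.31 in OTX015 and -0.25 ± 0.84 in DMSO. The largest mean difference was -0.43 at 8 h, with -1.15 in MAVER1, -0.71 in REC1, -0.03 in GRANTA519 and 0.16 in JEKO1. Its probe was detected on 16 of 20 OTX015 and 17 of 20 DMSO arrays, and its DMSO level differed between lines (limma F test, adjusted p = 0.000766). Transcript levels do not report the activity of HSF1, which is set largely after translation.

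The size of the OTX015 effect differed between lines for 7 members, with 9.70% of all genes doing so. HSPA1B over all times differed by 0.66 in GRANTA519, 0.91 in JEKO1, 0.23 in MAVER1 and -0.13 in REC1 (limma F test, adjusted p = 0.0343). HSPA6 was lower by 0.64, 0.86 and 0.45 in GRANTA519, JEKO1 and MAVER1 and near 0 in REC1, which barely detected it (differences of -0.64, -0.86, -0.45 and -0.05; limma F test, adjusted p = 0.0114). DNAJB2 was at 0.62 in GRANTA519, -0.01 in JEKO1, 0.59 in MAVER1 and 0.22 in REC1 (limma F test, adjusted p = 0.0102). In these tests the 5 times of a line stand in for replicates, and without JEKO1 1 member passed. The HSPA1B call was lost without GRANTA519, JEKO1 or REC1, the HSPA6 call without JEKO1 or REC1 and the DNAJB2 call without GRANTA519 or JEKO1. The DNAJB2 call was also lost with the mean of all probes, and the HSPA1B call with no detection filter.

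The lines also differed in their DMSO levels for 51 of the 68 members, beside 73.4% of all genes. BAG3 averaged 4.85 ± 0.34 in GRANTA519, 6.82 ± 0.40 in JEKO1, 7.87 ± 0.50 in MAVER1 and 7.67 ± 0.30 in REC1 (SD over 5 times), where MAVER1 overlapped with both JEKO1 and REC1. HSPB1 averaged 11.62 ± 0.11 in GRANTA519, 10.97 ± 0.25 in MAVER1, 10.41 ± 0.40 in JEKO1 and 8.66 ± 0.28 in REC1, and only JEKO1 and MAVER1 overlapped. DNAJC12 ran the other way for REC1, with 8.17 ± 0.32 there, 7.53 ± 0.28 in MAVER1, 6.78 ± 0.45 in JEKO1 and 5.18 ± 0.35 in GRANTA519, with MAVER1 overlapping REC1 and JEKO1. DNAJA4, a type A J protein, averaged 6.87 ± 0.56 in MAVER1 and was detected on no array of GRANTA519 or REC1.

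**Figure D5:**
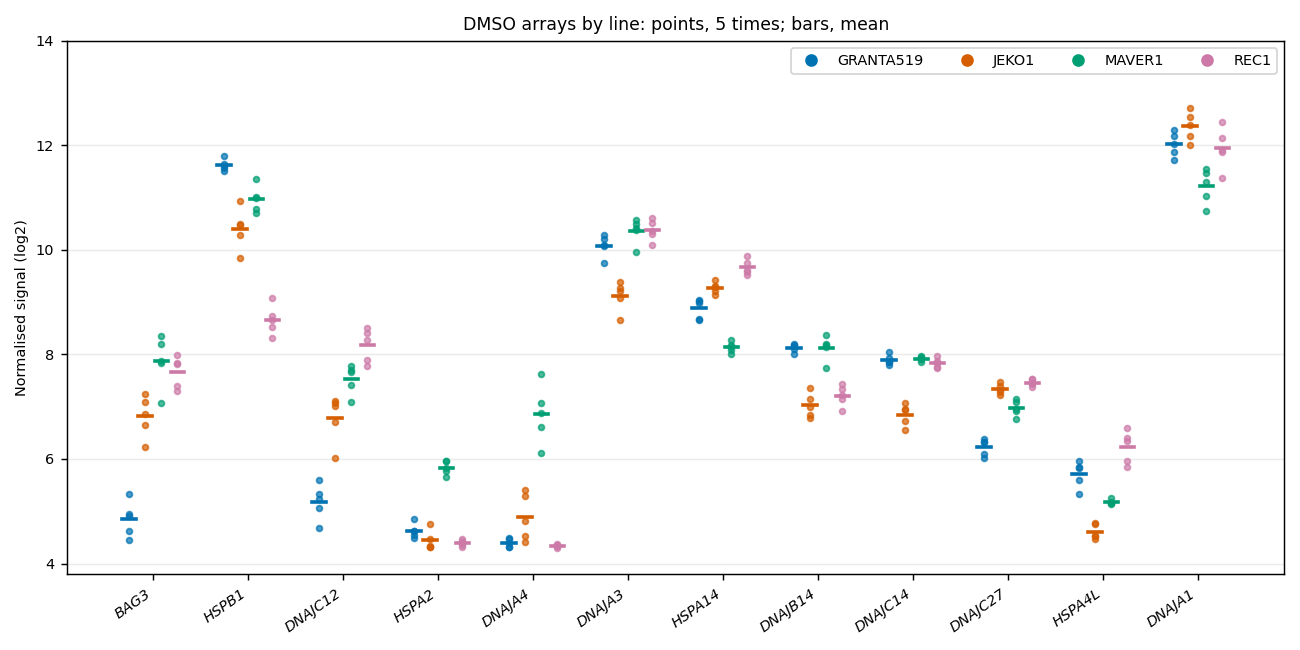
Log2 signal in the 20 DMSO arrays for the 12 members whose DMSO level differed between lines with the smallest p, in order of that p; points are the 5 times, bars their mean, and colours the lines. Signals of different genes come from different probes and cannot be set against each other, and within a gene BAG3 is lowest in GRANTA519 (4.85) and HSPB1 in REC1 (8.66).

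The gene most like DNAJB1 over the 40 arrays after removal of line means was HSPA1B, with a Pearson correlation of 0.857, followed by 4 genes outside the family, RNF34 and TYW1B with 0.786 each, EFNA4 with 0.78 and RPRD1A with 0.772. The next members in order were HSPA8 with 0.697, DNAJB6 with 0.676, HSPH1 with 0.64 and DNAJA1 with 0.634, and BAG3 had 0.55. These correlations are descriptions over arrays that share time and treatment.

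A second list covered other chaperone machinery, 54 genes such as the cytosolic chaperonin, prefoldin and cochaperones of HSP90, of which 50 were tested. At 2 h 2 of them passed, 1 in each direction (4.96% and 4.84% of all genes), and in DMSO 5 rose between 2 h and 24 h, AHSA2P, CCT6A, FKBP4, SUGT1 and TCP1, and none fell (4.36% and 3.09% of all genes). Between 24 h and 2 h in DMSO, FKBP4, an immunophilin of HSP90, rose by 0.61 log2 and TCP1, a chaperonin subunit, by 0.66 (limma, adjusted p = 0.00643 and 0.0206). At 24 h 5 were higher and 10 lower with OTX015, when 13.2% and 11.4% of all genes were, among them FKBP4 at -0.74 and the endoplasmic reticulum chaperone CALR at -0.45 (limma, adjusted p = 0.000374 and 0.00537).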

How the data were processed

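The deposited non-normalized table held 1 intensity per probe and array, and GenomeStudio is the tool named in the submitters' processing notes; the deposited series matrix held log2 values of the same arrays, with a normalization that the sources used here do not state. Its column medians lay between 6.706 and 6.707, it was not centred by probe, and it served as an alternative. Members, gene lists and tests were chosen with earlier results of these data known.

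In R 4.3.3 with limma 3.58.1, the mode of each array's log2 signals served as its background (89.2 to 113.2 intensity units), because the table held no control probes or detection p-values. Signals were corrected by the normal-exponential model, 16 was added, and arrays were quantile normalised, which hides any shift common to every gene. Detection meant a signal 2.33 SD above the mode. The 27197 probes detected on at least 4 arrays were kept, 1 per gene, that with the highest mean. Symbols of 30074 of 30113 probes with 1 symbol were updated through RefSeq. Where a probe was detected on no array of a group, its fold is a lower bound, computed against the lowest detected signal of each array.

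Tests used the OTX015 minus DMSO differences of the same line and time (lmFit and eBayes, two-sided). Same-line arrays deviated together (correlation 0.756 to 0.886 over 20 pairs), so every test paired arrays by line and time or held a line term. The test over all times used the mean of each of the 4 lines, the effect at each time with the spread shared over times, and changes between times in models with line and time. The fit of the effect at each time held no line term. With a fixed line term added, 61 of 61 named calls stayed. Such a term leaves each mean difference unchanged and takes the spread between lines out of the error. It therefore cannot show whether the differences of a line vary together. Fitting each time alone, which uses only the differences of that time, lost 18 of the 61. The fits were tested on simulated data with independent noise for each array and the same added effects in every line. That simulation cannot check the p-values where the differences of a line vary together or effects differ between lines. The text names a fixed core of members and, per test, the 12 past the threshold with the largest change or, in F tests, the smallest p, and some members with smaller changes were added after their values were seen. Alternatives covered background correction, the value source, detection filter, probe rule, each line left out, no block, single-time fits and left-out times.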

Additional observations from a re-analysis of the deposited data

Results flagged for a closer look

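Among the effects of OTX015 named for each time, 2 had 1 line far from the others. DNAJB1 at 4 h rose by 0.76 log2 in GRANTA519 and by 0.51 to 0.53 in the other lines, a gap that is 0.93 of the whole range. DNAJC17 at 8 h was at -1.09 log2 in JEKO1 and between -0.31 and -0.15 in the others, a gap that is 0.832 of the range. Chance gives about 1 such gap in 20 groups of this size, and many were checked. The DNAJC17 call at 8 h (limma, adjusted p = 0.0482) was lost in 10 of 12 alternatives. Among these were any 1 line left out, 8 h fitted alone and the series matrix values.

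The effect of OTX015 over all times differed between lines for 7 members, by limma's F test with adjusted p of 0.0102 for DNAJB2, 0.0114 for HSPA6, 0.0171 for DNAJC25, 0.0276 for HSPBAP1, 0.0289 for HSPA4L, 0.0343 for HSPA1B and 0.0452 for DNAJC22. DNAJC25 differed by 0.49 in GRANTA519 and by -0.14 to 0.07 in the other lines, and HSPBAP1 by 0.08 in MAVER1 and by -0.73 to -0.39 in the others. HSPA4L was at -0.34 in GRANTA519, -0.22 in REC1 and 0.03 in MAVER1, and JEKO1 detected it on 1 of 5 OTX015 and 0 of 5 DMSO arrays, so its value there has no firm size. DNAJC22 was detected on 4 arrays in all, so its value is close to background.

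The effect differed between 24 h and 2 h for the following members. DNAJB1 had an adjusted p of 3.47e-05 by limma, HSPA5 0.000198, HSPA6 0.000301, HSPA1B 0.00162, DNAJC12 0.00308 and HSPB1 0.00729, all toward lower values at 24 h. The same direction held for BAG3 (0.0107), HSPH1 (0.0151), HSPA14 (0.0175) and DNAJC7 (0.04). DNAJB2 (0.00533) and DNAJC21 (0.0129) moved toward higher values. The DNAJC7 call was lost without any 1 of the lines and with no detection filter. That of HSPB1 was lost without MAVER1 or REC1, and that of BAG3 without GRANTA519 or MAVER1. The HSPA14 call was lost without GRANTA519, MAVER1 or REC1, and the DNAJC21 call without JEKO1, MAVER1 or REC1. DNAJB2 lost its call without GRANTA519 or MAVER1 and with the mean of all probes. For HSPA1B, DNAJB1, BAG3 and HSPH1 the DMSO arrays had risen past the threshold between 2 h and 24 h, and for the other 8 listed they had not. Of the changed members not listed, HSPD1 had also risen past the threshold in DMSO, by 0.36 (limma, adjusted p = 0.0398). HSPA9, HSPE1, HSP90AB1 and DNAJC27 had not.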

How the results depend on the processing

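Of 151 named results past the threshold, none changed direction under the alternatives run for it, and 22 passed under every alternative that gave a value. Members called without the pairing (no replicate block) were 13 and not 20 over all times, 5 and not 31 at 1 or more times, 0 and not 17 for the change of the effect, 0 and not 12 for the 24 h change in DMSO, 2 and not 20 for the 8 h change in DMSO, 1 and not 18 for the change in OTX015, and 1 and not 7 for the difference between lines in the effect. With limma and no block, 5 and 8 members had an unadjusted p under 0.05 for the 2 counts of 0. Leaving out each line in turn gave 11 to 20 members over all times, 25 to 31 at 1 or more times, 5 to 18 for the change of the effect, 3 to 11 and 8 to 15 for the 24 h and 8 h changes in DMSO, 8 to 16 for the change in OTX015, 1 to 4 for the difference between lines in the effect and 43 to 47 for the DMSO levels. The low ends came without GRANTA519 for the counts over all times and in OTX015, without MAVER1 for the change of the effect and both changes in DMSO, and without JEKO1 for the line difference; fewer lines also leave fewer degrees of freedom, and the cause was not tested further. Sizes depended on the background. Called changes were a median 68.6% as large in the series matrix values, 73.7% with no background correction and 87.1% with an offset of 50. HSPA1B, DNAJB1 and BAG3 at 2 h passed with any line left out. With each time fitted alone, 18 of 61 named effects at a single time were lost. Among them were BAG3, HSPA5 and DNAJC30 at 2 h, and HSPB1, DNAJB2, HSPA14, HSPA8, HSPE1 and DNAJC14 at 24 h. Probes near background give only bounds, and 4 lines with 1 array per time limit all tests.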

Other observations

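In DMSO at 8 h against 2 h, members outside the cytosol also rose past the threshold: DNAJB14, an endoplasmic reticulum membrane J protein, by 0.42 ± 0.22 log2, and DNAJC19, of the mitochondrial import motor, by 0.43 ± 0.20 (limma, adjusted p = 0.0149 and 0.0414, 4 of 4 lines each). DNAJC18 was lower by 0.50 ± 0.31 (-0.50; limma, adjusted p = 0.0239).

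Within OTX015 between 24 h and 2 h, DNAJC25 was lower by 0.82 ± 0.23 (-0.82; limma, adjusted p = 0.000119), beside -0.33 ± 0.37 in DMSO, which did not pass. DNAJC24, of diphthamide synthesis, was higher by 0.56 ± 0.22 and DNAJC5, a secretory vesicle J protein, by 0.42 ± 0.23 (limma, adjusted p = 0.0117 and 0.0122).

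The probe used for DNAJC28 was detected on all 40 arrays, while the other 3 probes of that gene were detected on 12, 0 and 0, so its value may not report DNAJC28 alone.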
